A study of Mus musculus with 12 samples.

Results

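Chrdl1, the receptors Bmpr1a, Bmpr1b and Bmpr2, the signal-carrying Smad1 and Smad5, and the response genes Id1, Id2, Id3 and Id4 are components of bone morphogenetic protein (BMP) signalling. These 10 genes were selected by symbol from the 55401 genes of the deposited counts, with earlier CD51 and region results of the same libraries in view. Their differences are therefore described beside the share of all genes called, and they are no independent evidence. RNA was sequenced from astrocytes sorted by flow cytometry from 2 brain regions, and the 12 libraries fall into 4 groups of 3, which are hippocampus CD51+, hippocampus CD51-, cortex CD51+ and cortex CD51-. All groups came from CD51-Flp mice that also carry Rosa-CAG-FSF-tdTomato, in which Flp recombinase made under CD51 (the integrin alpha-v chain) switches on the red reporter tdTomato. CD51+ cells were sorted as tdTomato+/GFP+ and CD51- cells as tdTomato-/GFP+. What drives GFP, the age of the mice and whether libraries came from separate animals are not given in the sources used here, so p-values measure the spread between these libraries. Groups follow the sample titles, while the library names carry G for CD51+ titles and GT for CD51- titles and could point to the opposite classes. If so, the sign of all CD51 differences given here would be turned round.

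BMPs are secreted ligands that bring type I receptors (such as Bmpr1a and Bmpr1b) together with a type II receptor (Bmpr2). The type I receptor then phosphorylates Smad1, Smad5 or Smad9, which enter the nucleus with Smad4 and switch on targets, among them the Id genes. Id proteins lack a DNA-binding region and hold back the E proteins that other helix-loop-helix factors need as partners. Chrdl1 (chordin-like 1) is a secreted protein that binds BMPs. In the mouse it is known as an astrocyte factor for synapse maturation that is enriched in upper cortical layers. BMP signals promote astrocyte differentiation from neural progenitors.

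The libraries held 4351897 to 12847183 counts and 12113 to 15425 detected genes. Mitochondrial genes took 49.9% to 53.3% of counts in hippocampus CD51+, 20.2% to 29.4% in hippocampus CD51-, 36.5% to 71.1% in cortex CD51+ and 22.5% to 38.6% in cortex CD51-. The summed level of 20 pan-astrocyte markers, in counts per 1000000 scaled by TMM factors (CPM), was 53590 to 68840 in hippocampus CD51+, 15660 to 18430 in hippocampus CD51-, 64320 to 85670 in cortex CD51+ and 5796 to 15940 in cortex CD51-. Of these markers, 11 of 20 were called higher in CD51+ in hippocampus and 16 of 20 in cortex. The 14 microglial markers summed to 207 to 1719 CPM in hippocampus CD51+, 5625 to 8367 in hippocampus CD51-, 340 to 1019 in cortex CD51+ and 8665 to 12060 in cortex CD51-. The 12 oligodendrocyte markers summed to 1257 to 5014, 6918 to 38070, 2721 to 2861 and 33250 to 64020 CPM in the same group order. Aif1 and Mag, markers of microglia and oligodendrocytes, had 0 counts in cortex CD51+, but Mag had at most 100 counts in any group. The other markers of both lists were detected in cortex CD51+, among them Csf1r with 2906 and Mbp with 39156 counts. Of the microglial markers, 7 of 14 were called lower in CD51+ in hippocampus and 9 of 14 in cortex. Of the oligodendrocyte markers, 2 of 12 were called lower in CD51+ in hippocampus and 5 of 12 in cortex. Mog, Mag, Cnp and Aspa had higher means in CD51+ in hippocampus, against the direction of the sum. The libraries labelled CD51- astrocytes thus had lower astrocyte and higher microglial and oligodendrocyte marker sums. In bulk RNA, fewer cells of a type and less RNA per cell cannot be told apart. Because the pan-astrocyte markers move with the CD51 class, the levels of Chrdl1, the receptors and Id4 are also given per 1000 CPM of the pan-astrocyte sum.

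In cortex, 2 of the 9 members tested were called between the CD51 classes (Id4 and Bmpr1b), where the edgeR test called 11.3% of all 12613 genes. Their sequence is shown over the 250 bases before a RefSeq start (GRCm38.p6), since these are the members that passed the test. Both are printed 5′ to 3′ on the gene's strand, with matches to a pair of Smad motifs in capitals. The Id4 window is chr13:48260866-48261115 on the plus strand, and the Bmpr1b window is chr3:141982265-141982514 on the minus strand, the farthest upstream of 3 RefSeq starts.
Id4: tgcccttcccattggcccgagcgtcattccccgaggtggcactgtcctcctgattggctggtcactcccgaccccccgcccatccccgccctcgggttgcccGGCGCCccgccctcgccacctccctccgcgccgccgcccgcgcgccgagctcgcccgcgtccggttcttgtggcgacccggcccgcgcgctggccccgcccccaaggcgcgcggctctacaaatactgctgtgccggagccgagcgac
Bmpr1b: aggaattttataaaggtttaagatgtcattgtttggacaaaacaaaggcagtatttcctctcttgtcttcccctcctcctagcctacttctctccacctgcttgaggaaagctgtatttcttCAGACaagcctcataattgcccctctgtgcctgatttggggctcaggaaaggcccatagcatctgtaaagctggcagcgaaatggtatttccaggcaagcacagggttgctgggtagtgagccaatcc
The Id4 window holds 1 match to the GC-rich Smad motif GGCGCC, which reads the same on both strands. The Bmpr1b window holds 1 match to the Smad box GTCTG, read here on the other strand as CAGAC, and the windows of the other Bmpr1b starts hold 1 and 0. Windows of Bmpr1a, Bmpr2, Id2 and Smad5, which were not called, also hold GGCGCC. The Smad box is also in the window of Id3 (2 matches) and in a window of Smad5 (1 match), neither of them called. The motifs share no overlapping match in these windows. Among 32851 RefSeq promoter windows of 250 bases, 9.6% hold GGCGCC and 42.2% hold GTCTG or CAGAC, and a match describes letters, not a bound site. Of the 10 members, 8 were in the promoter table, and Chrdl1 and Id1 were not.

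Chrdl1 had the widest gap between the regions of the 9 members tested. It lies on mm10 chromosome X, positions 143285674 to 143394262, minus strand (ENSMUSG00000031283.16). Its levels were 31.2, 42.1 and 27.1 CPM in hippocampus CD51+, and 5.58, 10.5 and 0.0906 CPM in hippocampus CD51-, the last from 1 count. The cortex CD51+ libraries were at 568, 513 and 689 CPM, and the cortex CD51- libraries at 33.3, 17.1 and 232 CPM. Every cortex CD51+ library lay above every other library, and the third cortex CD51- library stood above both others of its group. No groups overlapped in any of the 4 pairwise comparisons. The share of all genes without overlap was not counted, so statements on overlap, here and for the other genes, only describe the libraries. Hippocampus CD51+ was lower than cortex CD51+ by a log2 fold change of -4.14 ± 1.07 (SE; adjusted p = 0.206, quasi-likelihood F test of edgeR, adjusted by Benjamini-Hochberg over 12613 genes). Within the CD51- class the log2 fold change of hippocampus against cortex was -4.12 ± 1.07 (adjusted p = 0.15, edgeR). These did not pass the adjusted threshold of 0.05, in comparisons where 0.0396% of all genes were called in CD51+ and 0% in CD51-. In the CD51- comparison edgeR called 0 of 12613 genes, 1664 had an unadjusted p under 0.05, DESeq2 called 688 and limma-voom 109. In the CD51+ comparison DESeq2 called 491 of 12613 genes. DESeq2 called Chrdl1 lower in hippocampus in CD51+ (log2 fold change -4.15, adjusted p = 0.00572) and in CD51- (-4.25, adjusted p = 0.00313). Over all alternatives the Chrdl1 region difference ranged from -4.34 to -3.86 in CD51+, past the threshold in 5 of 23 (edgeR, limma-voom or DESeq2, adjusted p 0.000615 to 0.37), and from -5.04 to -2.29 in CD51-, past it in 2 of 23 (adjusted p 0.00168 to 0.439). The single libraries whose removal brought the CD51+ value past the threshold were cortex CD51- replicate 3 (adjusted p = 0.0311, edgeR) and hippocampus CD51- replicate 3 (adjusted p = 0.0355, edgeR). Neither is part of the CD51+ comparison, so their removal changed the shared fit and filter, not the libraries compared. Genes tested then rose from 12613 to 14377 and 14119 in that order, and genes called in this comparison from 5 to 35 and 16.

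Between the CD51 classes, the Chrdl1 log2 fold change was 2.63 ± 1.01 in hippocampus (adjusted p = 0.148, edgeR) and 2.65 ± 1 in cortex (adjusted p = 0.0793, edgeR). Neither passed the threshold, and the difference between them was -0.02 ± 1.72 (adjusted p = 1, edgeR). In cortex the value was past the threshold in 5 of 23 alternatives, among them DESeq2 (2.61, adjusted p = 0.0483), edgeR without cortex CD51- replicate 3 (4.49, adjusted p = 0.00598) and edgeR without hippocampus CD51- replicate 3 (2.66, adjusted p = 0.0304). Hippocampus CD51- replicate 3 is not part of the cortex comparison, and its removal changed only the shared fit and filter. Per 1000 CPM of pan-astrocyte markers, Chrdl1 stood at 0.544 ± 0.0939 in hippocampus CD51+, 0.311 ± 0.285 in hippocampus CD51-, 7.91 ± 1 in cortex CD51+ and 7.69 ± 6.15 in cortex CD51- (SD, n = 3 each). On that scale the CD51 classes overlapped in both regions. The regions did not overlap, with 0.437 to 0.612 in hippocampus CD51+ against 6.84 to 8.84 in cortex CD51+, and 0.00576 to 0.57 in hippocampus CD51- against 2.74 to 14.6 in cortex CD51-. Markers of choroid plexus and ependyma also moved with the region, summing to 448 to 2120 CPM in hippocampus CD51+, 1261 to 5556 in hippocampus CD51-, 24.4 to 83.1 in cortex CD51+ and 58.2 to 437 in cortex CD51-, and their part in the Chrdl1 difference was not tested. With library sizes set to the marker sum of astrocytes, the cortex CD51 difference was 0.04 on the log2 scale (adjusted p = 0.989, edgeR).

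**Figure D1:**
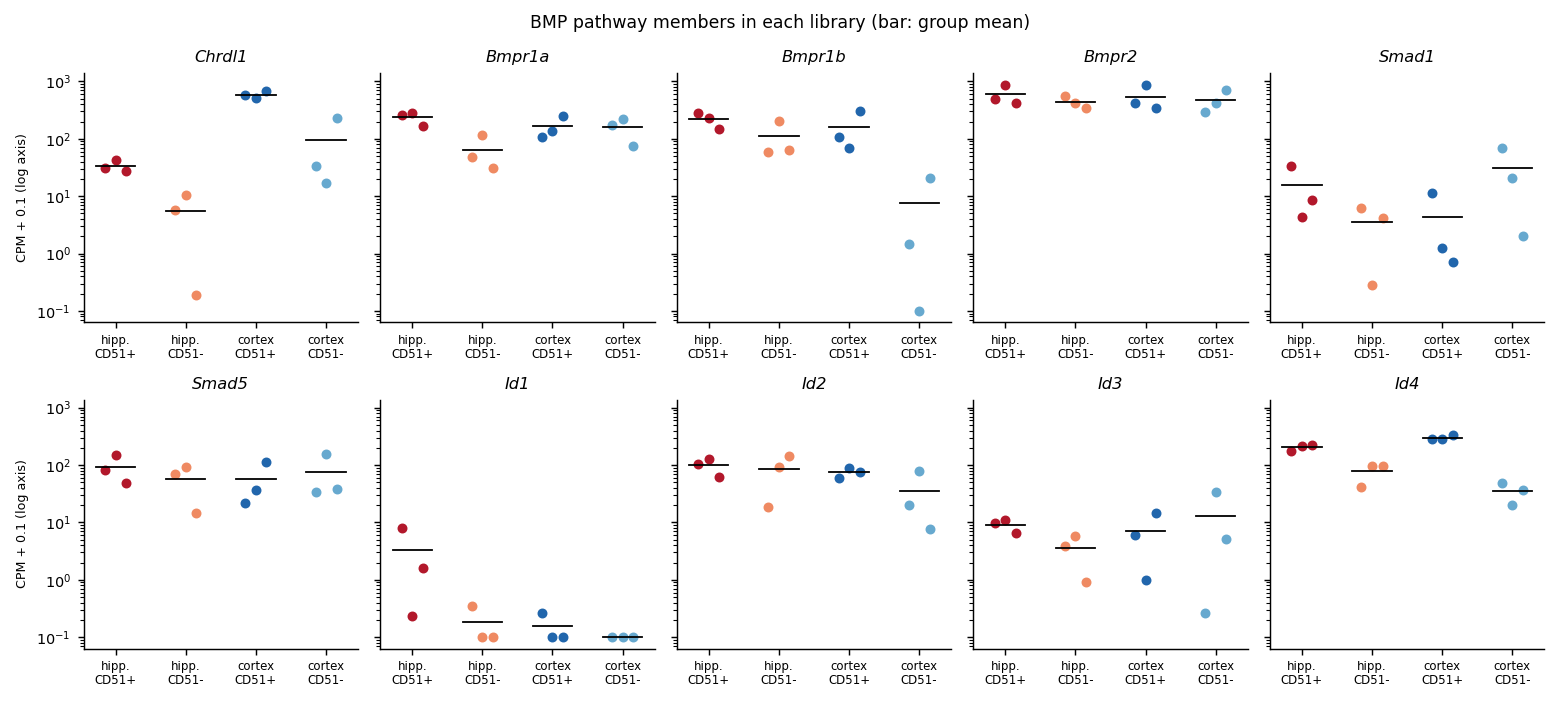
Level of each member in each library (points, replicates 1 to 3 from left to right; bars, group means) as CPM + 0.1 on a log axis, with hippocampus left of cortex and CD51+ left of CD51-. Chrdl1 sits at 513 to 689 CPM in cortex CD51+ and at 42.1 CPM or less in every hippocampus library, while Bmpr2 overlaps among all groups.

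The genes whose profile over the 12 libraries was closest to Chrdl1 were Epdr1, Lzic, Slc35b4, Gabbr2 and Slc39a14. Likeness was the root mean square difference of log2(CPM + 1) values, each gene centred on its own mean, and it was 1.22, 1.24, 1.25, 1.38 and 1.58 in that order, against a median of 3.16 over 10827 genes. Gabbr2, a subunit of the GABA-B receptor, averaged 127 ± 119 CPM in hippocampus CD51+, 4.54 ± 6.79 in hippocampus CD51-, 469 ± 124 in cortex CD51+ and 47.5 ± 42.9 in cortex CD51- (SD, n = 3 each). Epdr1 averaged 12.6 ± 7.49, 1.72 ± 2.58, 143 ± 163 and 35.7 ± 51.1 CPM in the same groups, so its cortex CD51+ libraries were more spread than those of Chrdl1.

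Among the receptors, Bmpr1b differed between the CD51 classes in cortex. It encodes a type I receptor and lies on mm10 chromosome 3, positions 141837136 to 142169425, minus strand (ENSMUSG00000052430.15). Its levels were 279, 226 and 149 CPM in hippocampus CD51+, 57.6, 208 and 64.8 CPM in hippocampus CD51-, 108, 70.3 and 305 CPM in cortex CD51+, and 1.35, 0 and 20.9 CPM in cortex CD51-. The cortex CD51- libraries were the lowest of the 12 and overlapped with no other group. In cortex Bmpr1b was called higher in CD51+, with a log2 fold change of 4.45 ± 1.24 (adjusted p = 0.0237, edgeR). In hippocampus the groups overlapped and the log2 fold change was 0.99 ± 1.09 (adjusted p = 0.725, edgeR). The difference between these values, hippocampus minus cortex, was -3.46 ± 1.57 (adjusted p = 0.364, edgeR), so the regions were not shown to differ. Within CD51-, hippocampus was above cortex in every library, with a log2 fold change of 3.90 ± 1.21 (adjusted p = 0.226, edgeR), and DESeq2 called it (3.82, adjusted p = 0.0267).

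The cortex call of Bmpr1b held in 19 of 23 alternatives. It was lost without cortex CD51+ replicate 3 (log2 fold change 3.50, adjusted p = 0.0867, edgeR) and without cortex CD51- replicate 1 (3.95, adjusted p = 0.0617, edgeR). It was also lost with only the 6 cortex libraries (4.41, adjusted p = 0.0673, edgeR) and on the pan-astrocyte scale (1.99, adjusted p = 0.193, edgeR). Without cortex CD51- replicate 3, which held most of the counts of its group, the log2 fold change was 7.78 (adjusted p = 0.000206, edgeR) and the difference between regions was called (-6.83, adjusted p = 0.0372, edgeR). Per 1000 CPM of pan-astrocyte markers, Bmpr1b stood at 3.63 ± 1.44 in hippocampus CD51+, 6.36 ± 4.27 in hippocampus CD51-, 2.05 ± 1.35 in cortex CD51+ and 0.514 ± 0.698 in cortex CD51- (SD, n = 3 each).

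Bmpr1a, the more widely expressed type I receptor, followed another pattern. Its levels were 257, 283 and 167 CPM in hippocampus CD51+, 48.4, 115 and 31.3 CPM in hippocampus CD51-, 107, 137 and 248 CPM in cortex CD51+, and 174, 224 and 76.0 CPM in cortex CD51-. The CD51 classes did not overlap in hippocampus and overlapped in cortex. The log2 fold change was 1.86 ± 0.71 in hippocampus (adjusted p = 0.148, edgeR) and 0.06 ± 0.69 in cortex (adjusted p = 0.978, edgeR), and the difference between them was 1.81 ± 0.98 (adjusted p = 0.452, edgeR). On the pan-astrocyte scale Bmpr1a stood at 3.86 ± 1.08, 3.77 ± 2.20, 2.13 ± 0.666 and 23.5 ± 16.4 in hippocampus CD51+, hippocampus CD51-, cortex CD51+ and cortex CD51- (SD, n = 3 each). The cortex difference then was -3.46 on the log2 scale (adjusted p = 0.0046, edgeR), with the CD51+ libraries all below the CD51- libraries. With that scaling the median of all genes in cortex was -3.26, and 4642 of 12613 were called lower. The Bmpr1a value thus lay near the shift of all genes. Exons of Bmpr1a overlap Gm17110 on the opposite strand, and the unstranded counting cannot separate them.

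Bmpr2, the type II receptor whose human counterpart is mutated in inherited pulmonary arterial hypertension, was the most even member. It ranged from 424 to 881 CPM in hippocampus CD51+, 339 to 550 in hippocampus CD51-, 340 to 854 in cortex CD51+ and 288 to 701 in cortex CD51-. All groups overlapped, the log2 fold changes of the 4 pairwise comparisons lay between -0.11 and 0.47, and the smallest adjusted p was 0.742 (edgeR). Per 1000 CPM of pan-astrocyte markers it stood at 9.65 ± 3 in hippocampus CD51+, 26.3 ± 7.60 in hippocampus CD51-, 7.31 ± 3.76 in cortex CD51+ and 53.3 ± 11.6 in cortex CD51- (SD, n = 3 each). On that scale the CD51 classes did not overlap in either region, and the cortex log2 fold change was -2.87 (adjusted p = 0.00186, edgeR). The median of all genes in cortex was -3.26 with that scaling, a larger fall than that of Bmpr2. The part of the other cell types whose markers are high in the CD51- libraries was not tested. The 10 markers of endothelium, where Bmpr2 is also known to act, summed to 1.01 to 25.9 CPM in hippocampus CD51+, 7.06 to 66.2 in hippocampus CD51-, 1.03 to 12.8 in cortex CD51+ and 18.5 to 34.5 in cortex CD51-. Pecam1, with the most counts of these markers in cortex CD51-, had 419 there and 8 over cortex CD51+, while Cldn5 had 0 counts in all 4 groups. Emcn and Kdr went the other way, with means of 1.51 and 3.25 CPM in cortex CD51+ and 0 and 2.26 CPM in cortex CD51-. Of the 10 endothelial markers 4 were tested, and 0 were called between the CD51 classes in either region.

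Levels of different genes can be compared only per length, and shares of length-scaled TPM (transcripts per 1000000) do so within a library. Bmpr1b made up 53.6%, 46.0% and 48.8% of the summed TPM of Bmpr1a and Bmpr1b in hippocampus CD51+, and 55.9%, 65.9% and 68.8% in hippocampus CD51-. It made up 51.6%, 35.3% and 56.7% in cortex CD51+, and 0.822%, 0% and 22.6% in cortex CD51-. The sum was thus near an even mix of both in CD51+ of either region, and almost entirely Bmpr1a in the first 2 cortex CD51- libraries. Acvr1, another BMP type I receptor, is not in this sum. In hippocampus it ranged from 0.838 to 14.45 CPM over the CD51+ libraries and from 2.22 to 14.1 over the CD51- libraries. In cortex these ranges were 0.168 to 27.2 and 13.4 to 112 CPM, so the classes overlapped in either region. Within cortex CD51- replicate 2, where Acvr1 was highest, 69.7 TPM of Acvr1 stood beside 105 TPM of Bmpr1a. The share of Bmpr1b in the sum does not depend on library scaling.

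**Figure D2:**
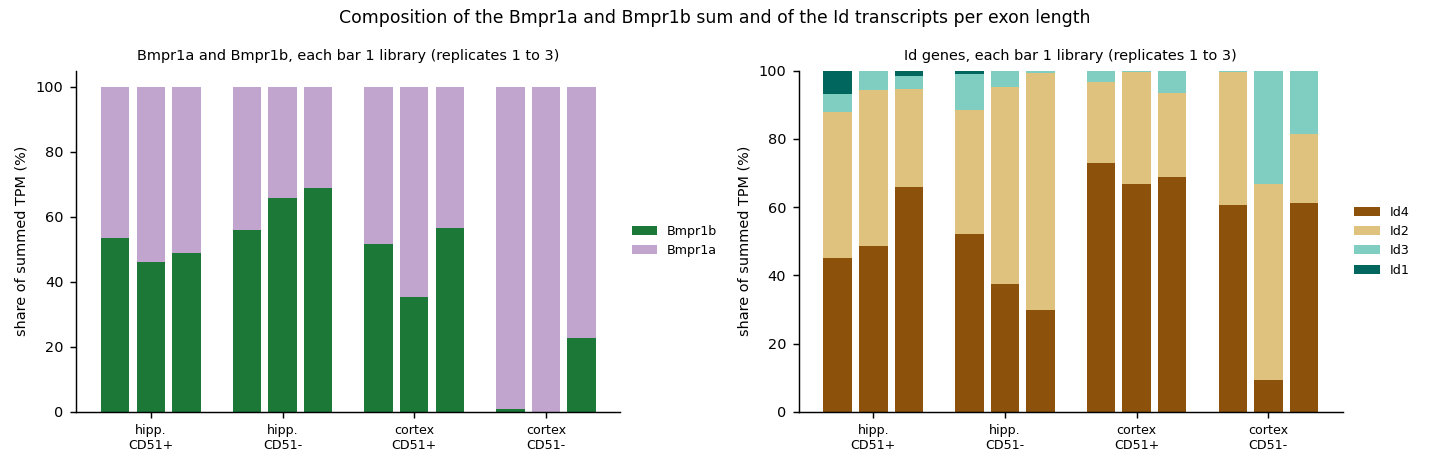
Share of summed TPM (percent) held by Bmpr1b and Bmpr1a, out of the sum of these genes (left), and each Id gene (right); each bar is 1 library, in the order hippocampus CD51+, hippocampus CD51-, cortex CD51+ and cortex CD51-. Bmpr1b is at most 22.6% in cortex CD51- and at least 35.3% in every other library, and Id4 is 66.9% to 72.9% in cortex CD51+.

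The receptor Smads had wide spreads, and Smad1 had as few as 2 counts in a library. Smad5, the better detected of the pair with 131 to 1326 counts in a library, ranged from 48.3 to 151 CPM in hippocampus CD51+, 14.7 to 91.2 in hippocampus CD51-, 22.0 to 112 in cortex CD51+ and 34.3 to 159 in cortex CD51-. These ranges overlap, with log2 fold changes of 0.69 ± 0.92 for CD51+ against CD51- in hippocampus (adjusted p = 0.783, edgeR) and -0.44 ± 0.92 in cortex (adjusted p = 0.797, edgeR). Smad1 was at 34.0, 4.16 and 8.38 CPM in hippocampus CD51+, 6.08, 0.186 and 3.99 CPM in hippocampus CD51-, 11.1, 1.15 and 0.609 CPM in cortex CD51+, and 69.1, 20.9 and 1.90 CPM in cortex CD51-. Libraries of the same group were far apart, and all groups overlapped. Its log2 fold change was 2.17 ± 1.79 in hippocampus (adjusted p = 0.599, edgeR) and -2.83 ± 1.84 in cortex (adjusted p = 0.306, edgeR), and the difference between them was 5.01 ± 2.57 (adjusted p = 0.424, edgeR). Some Smad5 exons overlap Gm27301 on the same strand. Smad9, the remaining receptor Smad of the pathway, held 46.2% ± 6.68 of the summed TPM of Smad1, Smad5 and Smad9 in hippocampus CD51+, 26.3% ± 11.5 in hippocampus CD51-, 30.9% ± 17.6 in cortex CD51+ and 0.973% ± 1.69 in cortex CD51- (SD, n = 3 each). Smad9 itself was not called between the CD51 classes in hippocampus (log2 fold change 2.09 ± 1.49, adjusted p = 0.517, edgeR) or in cortex (4.52 ± 1.67, adjusted p = 0.0731, edgeR).

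Id4 was the Id gene with the clearest difference. It lies on mm10 chromosome 13, positions 48261228 to 48266026, plus strand (ENSMUSG00000021379.2), and its product is known in mouse for its part in neural stem cells and astrocytes. Its levels were 176, 215 and 227 CPM in hippocampus CD51+, 41.1, 96.7 and 97.4 CPM in hippocampus CD51-, 284, 286 and 332 CPM in cortex CD51+, and 49.4, 19.8 and 36.5 CPM in cortex CD51-. CD51+ libraries were above CD51- libraries in both regions without overlap. In cortex Id4 was called higher in CD51+, with a log2 fold change of 3.09 ± 0.69 (adjusted p = 0.00564, edgeR). In hippocampus the log2 fold change was 1.39 ± 0.65 (adjusted p = 0.243, edgeR), and the difference between the regions was -1.70 ± 0.91 (adjusted p = 0.446, edgeR). Hippocampus CD51+ lay below cortex CD51+ without overlap, with a log2 fold change of -0.55 ± 0.64 (adjusted p = 0.854, edgeR).

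The cortex call of Id4 held in 22 of 23 alternatives, with every single library left out (log2 fold change 2.79 to 3.42, adjusted p 0.00736 to 0.0285, edgeR). The exception was the pan-astrocyte scale, on which it was -0.21 (adjusted p = 0.857, edgeR). Per 1000 CPM of pan-astrocyte markers, Id4 stood at 3.35 ± 0.276 in hippocampus CD51+, 4.69 ± 1.85 in hippocampus CD51-, 4.03 ± 0.329 in cortex CD51+ and 4.66 ± 3.38 in cortex CD51- (SD, n = 3 each). The CD51 classes overlapped there in both regions, so no difference in Id4 between the classes was detectable on that scale. Exons of Id4 overlap A330033J07Rik and Gm49291 on the opposite strand, which the unstranded counting cannot separate.

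**Figure D3:**
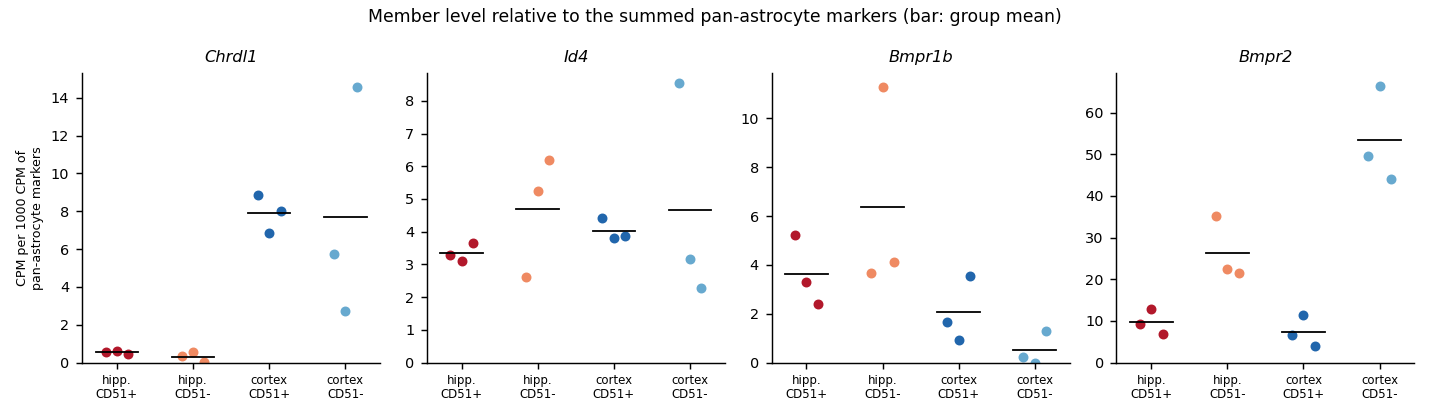
Chrdl1, Id4, Bmpr1b and Bmpr2 as CPM per 1000 CPM of the summed pan-astrocyte markers, in each library (points) with group means (bars), on linear axes. Chrdl1 separates the regions, at most 0.612 in hippocampus and at least 2.74 in cortex, Id4 overlaps among the CD51 classes, and Bmpr2 is at 44.0 to 66.3 in cortex CD51- against 3.97 to 11.4 in cortex CD51+.

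Id2 ranged from 62.7 to 128 CPM in hippocampus CD51+, 18.2 to 144 in hippocampus CD51-, 58.4 to 88.4 in cortex CD51+ and 7.73 to 78.0 in cortex CD51-. The groups overlapped, and the CD51 log2 fold change was 0.20 ± 0.90 in hippocampus (adjusted p = 0.951, edgeR) and 1.07 ± 0.91 in cortex (adjusted p = 0.456, edgeR). Id3 was lower, at 9.64, 11 and 6.37 CPM in hippocampus CD51+, 3.86, 5.67 and 0.815 CPM in hippocampus CD51-, 5.88, 0.898 and 14.4 CPM in cortex CD51+, and 0.169, 33.2 and 5.11 CPM in cortex CD51-. Its hippocampus CD51+ libraries were all above the hippocampus CD51- libraries, yet the log2 fold change of 1.38 ± 1.90 was within its error (adjusted p = 0.791, edgeR), and in cortex it was -0.86 ± 1.88 (adjusted p = 0.808, edgeR).

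Id1, a direct target often used as a readout of BMP signalling, had few counts. It had 35, 1 and 9 counts in hippocampus CD51+, 3, 0 and 0 in hippocampus CD51-, 1, 0 and 0 in cortex CD51+, and 0 in all 3 cortex CD51- libraries. Beside Id3 at 9.83, 8.66 and 5.11 TPM in hippocampus CD51+, the short Id1 (1160 bases of exon) stood at 12.65, 0.163 and 1.87 TPM. It did not pass the filter on low counts and was not tested, which leaves 9 of 10 members tested. Most Id1 counts came from 1 hippocampus CD51+ library, and the ratio of hippocampus CD51+ to hippocampus CD51- was 28.7, with a 95% interval of 9.20 to 144 that covers counting error only. A count of 0 over a group allows up to 3 counts. Id4 and Id2 made up most of the Id transcripts per length, with Id4 at 53.3% ± 11.1, 39.8% ± 11.3, 69.5% ± 3.07 and 43.6% ± 29.8 and Id2 at 39.0% ± 9.09, 54.6% ± 16.8, 27.1% ± 4.91 and 39.0% ± 18.5 of the summed Id TPM in hippocampus CD51+, hippocampus CD51-, cortex CD51+ and cortex CD51- (SD, n = 3 each).

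Per kilobase of exon, the order of the members differed between the regions in CD51+ cells. In hippocampus CD51+ the highest were Id4 at 53.5 ± 7 CPM per kb, Id2 at 40.3 ± 13.5, Bmpr1a at 37.1 ± 9.64, Bmpr1b at 36.6 ± 11 and Bmpr2 at 33.5 ± 13.6, and these neighbours do not differ beyond their spread (SD, n = 3 each). Chrdl1 followed Smad5 (12.7 ± 7.01) and Id3 (5.03 ± 1.33) there, at 4.96 ± 1.15 CPM per kb. In cortex CD51+ Chrdl1 was first at 87.3 ± 13.3 CPM per kb, next to Id4 at 78.0 ± 7.12, within their spread. Id2 (30.4 ± 6.16), Bmpr2 (30.0 ± 15.3), Bmpr1b (27.0 ± 21.1) and Bmpr1a (25.8 ± 11.7) came next as a group with overlapping spreads, followed by Smad5 at 7.65 ± 6.52 CPM per kb.

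**Figure D4:**
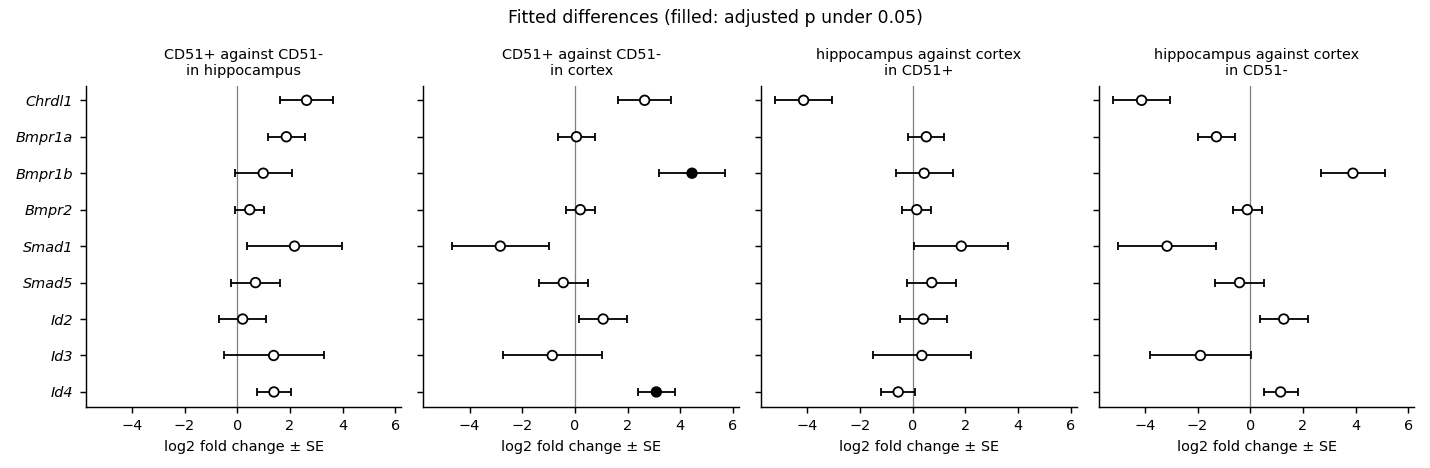
Log2 fold change ± SE of the 9 tested members in the 4 pairwise comparisons from the edgeR fit of all 12 libraries; filled points have an adjusted p under 0.05. The filled points are Bmpr1b and Id4 in cortex, and Chrdl1 is near -4 in both region comparisons.

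Over the tested members, 2 of 9 were called higher and 0 lower in CD51+ in cortex, where edgeR called 11.3% of all genes. In hippocampus 0 of 9 were called, against 3.31% of all genes, with 3 members at an unadjusted p under 0.05. No member was called by edgeR in the region comparisons or the difference between regions, where 0.0396% (CD51+), 0% (CD51-) and 0% (the difference) of genes were called, and 1, 2 and 1 members had an unadjusted p under 0.05. DESeq2 called 1 member between regions in CD51+ and 2 in CD51-, beside 491 and 688 of all 12613 genes. The median log2 fold change of the members was 1.38 in hippocampus and 0.20 in cortex for CD51+ against CD51-, beside -0.22 and -0.03 over all genes tested. For hippocampus against cortex it was 0.41 in CD51+ and -0.41 in CD51-, beside 0 and 0.12. These counts carry no evidence of their own, since the members were chosen with the results known. The comparisons within a region and within a class also share libraries.

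Of 51 other genes of the pathway, 29 passed the filter. In cortex 5 were called higher and 4 lower in CD51+, where edgeR called 11.3% of all genes. In hippocampus 0 were called higher and 1 lower, against 3.31% of all genes. This list too was chosen with earlier results of these data known, so its counts are no independent evidence. None of the 29 was called by edgeR between regions or in the difference of the CD51 effects. There 3 (CD51+), 9 (CD51-) and 9 (the difference) had an unadjusted p under 0.05. The median log2 fold change of the 29 was 0.66 in hippocampus and 0 in cortex.

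The Smad repressors Skil and Ski and the inhibitory Smad7 were lower in CD51+ in cortex. Skil, which encodes the co-repressor SnoN, was at 5.74, 29.0 and 20.9 CPM in hippocampus CD51+, 671, 564 and 975 CPM in hippocampus CD51-, 1.18, 10.5 and 31.5 CPM in cortex CD51+, and 1202, 1943 and 859 CPM in cortex CD51-. The classes were far apart in both regions, and Skil fell by 5.31 ± 0.89 on the log2 scale in hippocampus CD51+ (adjusted p = 0.00105, edgeR) and by 6.54 ± 0.95 in cortex CD51+ (adjusted p = 0.000162, edgeR). Smad7, which blocks receptor Smads and is itself induced by the signal, had 2, 1 and 0 counts in cortex CD51+ and 1444, 891 and 558 in cortex CD51-. The level in cortex CD51- was 666 times that in cortex CD51+ (95% counting interval 228 to 3230; adjusted p = 0.000228, edgeR). In hippocampus Smad7 was at 11.4 ± 11.05 CPM in CD51+ and 94.5 ± 23.7 CPM in CD51-, with a log2 fold change of -3.04 ± 1.02 that was not called (adjusted p = 0.109, edgeR). Ski averaged 30.6 ± 15.4 CPM in cortex CD51+ and 346 ± 224 CPM in cortex CD51-, and fell by 3.50 ± 0.78 on the log2 scale (adjusted p = 0.00562, edgeR). The 7 immediate early genes, which are known to respond to cell dissociation, moved the same way, with sums of 118 to 205 CPM in hippocampus CD51+, 4787 to 10120 in hippocampus CD51-, 28.3 to 107 in cortex CD51+ and 9303 to 13300 in cortex CD51-. All 7 were called lower in CD51+ in cortex and 6 of 7 in hippocampus, and their part in the Skil, Ski and Smad7 differences was not tested.

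Of 14 secreted antagonists and modulators, 5 were tested and 2 were called higher in CD51+ in cortex, and of 9 other receptors and co-receptors, 7 were tested, with 1 called higher and 1 lower. Fstl1, a follistatin-like secreted protein, had 586, 233 and 403 counts in cortex CD51+ and 1, 0 and 2 in cortex CD51-, a ratio of 590 (95% counting interval 201 to 2860; adjusted p = 0.000712, edgeR). Neo1, the receptor for repulsive guidance molecules that act as BMP co-receptors, averaged 231 ± 129 CPM in cortex CD51+ and 12.2 ± 15.4 CPM in cortex CD51-, with a log2 fold change of 4.25 ± 0.94 (adjusted p = 0.005, edgeR). On the pan-astrocyte scale the Neo1 call was lost (1.57, adjusted p = 0.188, edgeR). Zfp423, a zinc finger partner of Smad1, had 1719, 151 and 59 counts in cortex CD51+ and none in cortex CD51-, which makes it at least 931-fold higher against a floor of 3 counts over the group (adjusted p = 0.00285, edgeR). Most of its counts came from 1 library, so the size rests on cortex CD51+ replicate 1. The ligand Bmp7 had 310, 267 and 4 counts in cortex CD51+ and none in cortex CD51-, at least 280-fold higher against the same floor (adjusted p = 0.0257, edgeR). Its call was lost without cortex CD51+ replicate 1 (adjusted p = 0.0559, edgeR), cortex CD51- replicate 1 (0.0623) or cortex CD51- replicate 2 (0.0605). In hippocampus the same 4 genes were not called, with Fstl1 at 55.1 ± 34.0 CPM in CD51+ and 26.5 ± 5.27 CPM in CD51-, and Neo1 at 273 ± 69.3 and 80.1 ± 37.2 CPM in the same order (SD, n = 3 each). The remaining called genes in cortex, outside the naming rule and named because they complete the count, were the secreted modulator Twsg1 (log2 fold change 4.99 ± 1.34, adjusted p = 0.0187) and the co-receptor Rgmb (-6.74 ± 2.19, adjusted p = 0.0478, both edgeR). Their calls held in 18 and 16 of 23 alternatives in that order.

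**Figure D5:**
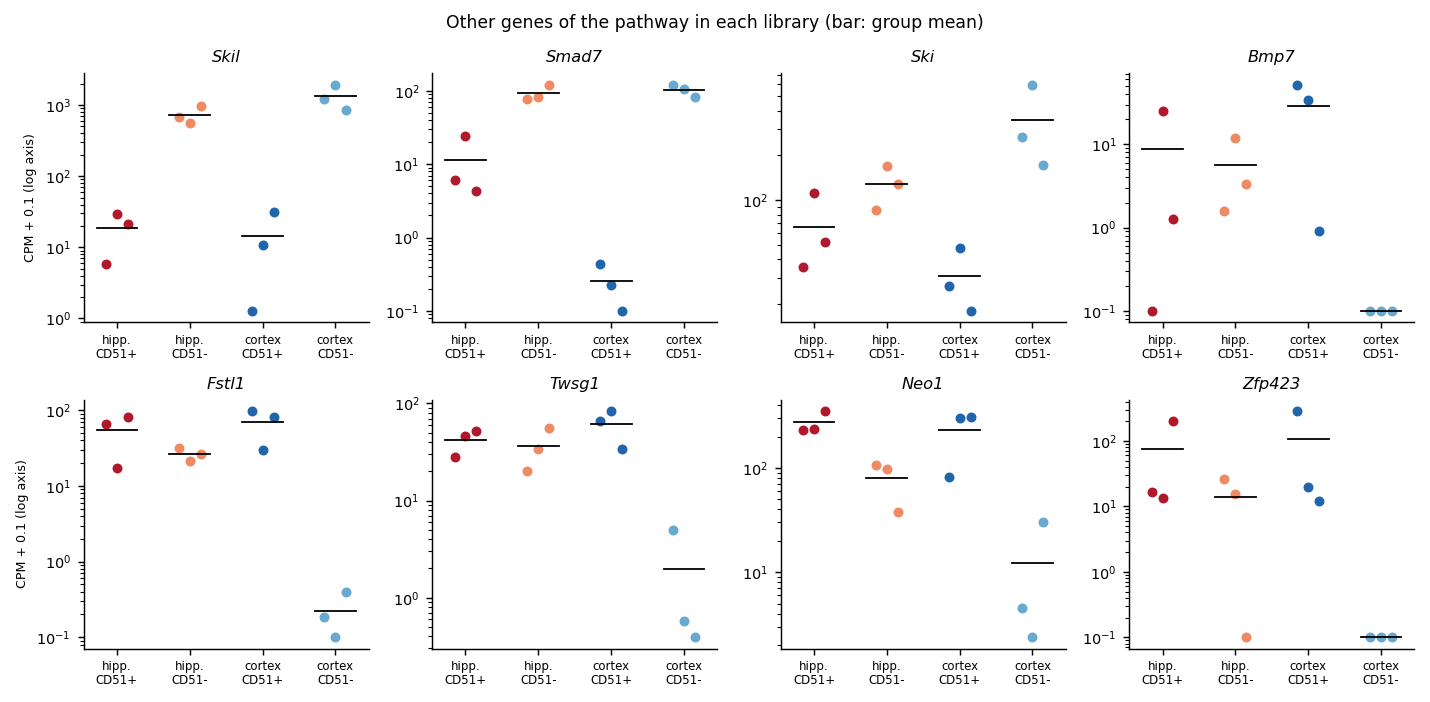
Level of 8 other pathway genes in each library (points; bars, group means) as CPM + 0.1 on log axes that differ between panels, with CD51+ left of CD51- within each region. Skil is at 31.5 CPM or less in every CD51+ library and at 564 CPM or more in every CD51- library, while Fstl1, Bmp7 and Zfp423 are at or near 0 in cortex CD51-.

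The remaining role groups held no called gene. Of the 5 other BMP-responsive targets, 4 were tested, and Hes1, the one with the highest TPM, stood at 12.8 ± 19.6 CPM in hippocampus CD51+, 27.1 ± 12.8 in hippocampus CD51-, 2.60 ± 1.52 in cortex CD51+ and 4.28 ± 7.29 in cortex CD51- (SD, n = 3 each). Of the 3 E proteins that Id proteins bind, Tcf4 was highest, at 811 ± 130 CPM in hippocampus CD51+, 516 ± 225 in hippocampus CD51-, 872 ± 246 in cortex CD51+ and 390 ± 90.5 in cortex CD51- (SD, n = 3 each). Its CD51 log2 fold change was 0.65 ± 0.50 in hippocampus (adjusted p = 0.558, edgeR) and 1.16 ± 0.50 in cortex (adjusted p = 0.116, edgeR).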

How the data were processed

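The deposited values are raw counts of read pairs per gene. Per the file headers, featureCounts 2.0.4 counted them over GENCODE vM25 exons, unstranded. Per the submitters' processing notes, STAR, mm10 and DESeq2 1.40.2 were used. Members and gene lists were chosen with earlier results of these data known. Of 55401 gene IDs, 55141 were given symbols from GENCODE vM21. The filterByExpr function, applied by group with a minimum count of 10 and a total of at least 15, kept 12613 genes. The test was edgeR 4.0.16 (R 4.3.3) quasi-likelihood with TMM factors, all 12 libraries in 1 fit of 4 groups, and 5 contrasts. Calls needed an adjusted p (Benjamini-Hochberg) under 0.05. Common dispersion came to 1.64. The SE is the absolute log2 fold change over the square root of F. CPM uses TMM-scaled totals, TPM uses the deposited exon lengths, and intervals cover counting error only. The rule named all members, up to 6 called pathway genes per contrast by p, the gene with the highest mean TPM of each role, and the 5 genes most like Chrdl1. Alternatives were RLE, upper-quartile and pan-astrocyte scaling, DESeq2 1.42.0, limma-voom (limma 3.58.1), other filters, robust dispersion, mitochondrial genes left out, a replicate block, the 6 libraries of a contrast and each library left out. The edgeR fit was first tested on simulated data with known changes.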

Additional observations from a re-analysis of the deposited data

How the results depend on the processing

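Depth and the spread between libraries limit these results: the biological coefficient of variation was 1.28, and Spearman correlations between replicates of a group were 0.605 to 0.708. Scaling to the pan-astrocyte sum moved the median of all genes to -2.09 (hippocampus) and -3.26 (cortex) on the log2 scale for CD51+ against CD51-, and edgeR then called 6 genes higher and 1639 lower in hippocampus (78 and 340 with TMM) and 122 higher and 4642 lower in cortex (637 and 791 with TMM). On that scale members called in cortex were 4 in place of 2 (Bmpr1a, Bmpr2, Smad1 and Smad5, all lower in CD51+), and pathway genes called were 16 in place of 9 in cortex and 5 in place of 1 in hippocampus. Log2 fold changes reversed to -3.46 (Bmpr1a), -2.87 (Bmpr2), -2.47 (Id2) and -0.21 (Id4) in cortex, and to -0.81 (Bmpr1b), -1.45 (Bmpr2), -1.19 (Smad5), -1.68 (Id2), -0.45 (Id3) and -0.49 (Id4) in hippocampus. Id2 between regions in CD51- became -0.091, and the differences of the CD51 effects became 0.77 (Chrdl1) and 0.79 (Id2).

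With only the 6 libraries of a contrast, members called were 1 in cortex and 1 between regions in CD51+, and pathway genes called in hippocampus were 2. DESeq2 called 5 pathway genes in hippocampus, limma-voom 3. Between regions, DESeq2 and the fit with no filter called 1 member each in CD51+ and 2 each in CD51-. With single libraries left out, members called ranged from 1 to 3 in cortex, and from 0 to 1 between regions in CD51+, between regions in CD51- and for the difference of the CD51 effects, and pathway genes called in hippocampus from 1 to 2. In cortex it was 1 without cortex CD51+ replicate 3 or cortex CD51- replicate 1.

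Values near 0 changed sign with other settings. The cortex value of Bmpr1a was -0.034 with RLE factors, -0.035 with DESeq2, -0.013 with limma-voom, -0.089 with no filter, -0.077 with mitochondrial genes left out and -0.039 with only the 6 libraries. Id3 in cortex was 0.47 with limma-voom, and Bmpr2 between regions in CD51- was 0.089 with limma-voom. The difference of the CD51 effects of Chrdl1 was 0.091 with RLE factors, 0.12 with upper-quartile scaling, 0.10 with DESeq2, 0.42 with limma-voom, 0.017 with no filter and 0.042 with mitochondrial genes left out. With single libraries left out, sign changes fell within these ranges. In cortex they were -0.36 to 0.38 (Bmpr1a), -0.30 to 0.55 (Bmpr2), -1.45 to 0.66 (Smad5) and -2.02 to 1.45 (Id3), and in hippocampus -0.27 to 0.80 (Id2). Between regions they were -0.23 to 0.66 (Bmpr2) and -0.16 to 1.41 (Id3) in CD51+, and -0.35 to 0.27 (Bmpr2), -0.88 to 0.69 (Smad5) and -2.45 to 0.42 (Id3) in CD51-. For the difference of the CD51 effects they were -1.87 to 0.91 (Chrdl1), -0.12 to 0.77 (Bmpr2) and -0.093 to 3.39 (Id3). Over all genes, calls in cortex numbered 1428 in edgeR, 3219 in DESeq2 and 2164 in limma-voom. In hippocampus they numbered 418, 1429 and 885, and 636 with no filter. Between regions they were 5, 491 and 2 in CD51+ (97 with no filter, 20 with robust dispersion, 3 with only the 6 libraries, 0 with the replicate block or pan-astrocyte scaling) and 0, 688 and 109 in CD51- (112 with no filter, 19 with robust dispersion). For the difference of the CD51 effects they were 0, 522 and 0 (146 with no filter, 2 with pan-astrocyte scaling, 1 with robust dispersion). The cause of these changes was not tested.

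The titles share replicate numbers, but the labels do not say that a number marks a shared animal, so the numbers are not taken as pairs. Same-numbered libraries did not deviate together (18 pairs, r from -0.05 to 0.03, 0 over 0.1). With so wide a spread between libraries, that cannot exclude pairing. A replicate block left the members called at 2 in cortex and 0 in every other contrast, and pathway genes called were 10 in cortex and 1 in hippocampus. It changed the sign of Smad5 (0.009) and Id3 (0.039) in cortex.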
